A study of Mus musculus with 4 samples.

Results

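The replication-dependent histone genes supply the linker histone H1 and the core histones H2A, H2B, H3 and H4 that package newly copied DNA. They were taken as every gene of the count tables whose symbol follows the mouse pattern Hist1 to Hist4 plus a histone type, which gave 68 of 24054 genes. Of these, 54 belong to Hist1 on chromosome 13, 10 to Hist2 on chromosome 3, 3 to Hist3 on chromosome 11 and 1 to Hist4 on chromosome 6. By histone type there are 6 H1, 18 H2A, 19 H2B, 12 H3 and 13 H4 genes. The RNA came from 4 cultures of mouse embryonic stem (ES) cells grown in serum with LIF, feeder-independent, on gelatin. One culture was wild type, of the ES cell line wt26. The other 3 were Morc3 rescue clones, named T131-3C, T131-3D and T131-3M and called 3C, 3D and 3M here. Each rescue clone is 1 clone picked from the Morc3 ko clone KO27-2 after a PiggyBac transposon with the Morc3 rescue construct was introduced and puromycin selection was applied. All 3 therefore share the ko background of KO27-2, which the wild-type culture does not carry, so that the ko background, clonal growth and re-expression of Morc3 cannot be told apart in these libraries. Morc3 encodes a nuclear ATPase of the MORC family, and the comparison asks how far a rescue clone resembles wild type.

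Replication-dependent histone genes have no introns, are transcribed in S phase, and lie in clusters that gather the transcription coactivator Npat at nuclear bodies. Their mRNAs end in a stem-loop in place of a poly(A) tail. The stem-loop is bound by Slbp, and the pre-mRNA is cut downstream of it with the help of the U7 snRNP, which holds the proteins Lsm10 and Lsm11. Because the libraries were made from rRNA-depleted total RNA and not by poly(A) selection, mRNAs without a tail could be counted.

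Morc3 itself, on chromosome 16, had 161 CPM (counts scaled by library size) in wild type against 655, 497 and 609 CPM in rescue clones 3C, 3D and 3M. It was higher in each of the 3 clones, with a log2 fold change of 1.87 (SE 0.17, adjusted p = 0.108 by the quasi-likelihood test of edgeR, Benjamini-Hochberg adjusted). The libraries held between 13620914 and 18789457 read pairs on genes, a share of 52.7% of read pairs for wild type and of 45.1% to 47.0% for the clones. Unmapped pairs took up 14.5% for wild type and 20.96% to 23.01% for the clones, and multimapping pairs 7.85% to 8.21%. All 10 ES cell markers exceeded 1 CPM in every library, with a summed level of 4122 to 4354 CPM. The summed markers of other cell types ranged from 5.22 to 9.88 CPM for primitive endoderm, 3.56 to 9.35 for mesoderm, 40.7 to 63.3 for neural cells and 0.137 to 1.16 for trophoblast. They ranged from 20.4 to 45.0 CPM for feeder fibroblasts, with Col3a1 at 0, from 0 to 0.148 for 2-cell-like cells, with 4 of 5 genes at 0, and from 0.0524 to 0.194 for testis, with Prm1, Prm2 and Tnp1 at 0. Most of the feeder sum was Thy1, at 18.6 to 43.7 CPM, and most of the neural sum was Nes, at 35.6 to 60.3 CPM. No marker gene was called between rescue and wild type, where edgeR called 1 of 13267 genes tested (0.00754%) at an adjusted p of 0.01. Single ES cell markers could vary more than their sum. Nanog had 300 CPM in wild type against 468, 358 and 481 CPM in 3C, 3D and 3M. Klf4 had 209 CPM against 180, 247 and 152.

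The sequences show how alike the members are and what a count of uniquely mapped reads can tell apart. The stem-loop was sought in the GENCODE transcripts of GRCm38, within 100 bases after the stop codon. It was taken as 6 paired bases on each side of a loop of 4 bases that opens with TT. Of the 48 members whose transcripts run at least 60 bases past the stop codon, 41 held one, starting 22 to 59 bases after the stop codon with a median of 32. Shown first are members whose levels the results below turn on, with the stem and loop in capitals.
Hist3h2a: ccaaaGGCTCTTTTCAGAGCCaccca
Hist2h2ac: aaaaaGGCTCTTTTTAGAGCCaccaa
Hist1h3b: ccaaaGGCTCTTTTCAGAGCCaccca
Hist1h1t: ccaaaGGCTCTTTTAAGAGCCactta
Hist2h4: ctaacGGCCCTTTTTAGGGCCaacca
Hist4h4: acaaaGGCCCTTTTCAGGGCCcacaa
Hist1h4i: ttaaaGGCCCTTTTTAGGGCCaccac
Hist1h4d: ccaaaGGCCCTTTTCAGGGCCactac
Across the 43 stem-loops found at any transcript length, all 32 of the H1, H2A, H2B and H3 genes opened with GGCTC, whereas all 11 of the H4 genes opened with GGCCC or GGTCC. The stem-loops of Hist3h2a on chromosome 11 and Hist1h3b on chromosome 13 were identical over the letters shown. Where no stem-loop was found, as for Hist2h2be, this says only that such an arrangement is not in the bases searched.

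Many of the members have near-identical copies. In 50-base windows of the coding sequence, the length of 1 read, the members with counts had a median of 28.5% of windows found in no other transcript. Over all members of a type, those at 0 included, the medians were 89.1% for H1, 16.1% for H2A, 25.9% for H2B, 15.3% for H3 and 29.7% for H4. All 9 members at 0 in every library had no unique window. These were the H2A genes Hist1h2ao, Hist1h2ap, Hist2h2aa1 and Hist2h2aa2, the H2B genes Hist1h2bq and Hist1h2br, the H3 genes Hist2h3c1 and Hist2h3c2 and the H4 gene Hist1h4m. Since only uniquely mapped pairs were counted, a count of 0 for these genes does not show that they are silent. A further 3 members without a unique coding window, Hist1h2ad, Hist1h2ag and Hist1h4n, did have counts. Levels of members with few unique windows are therefore uncertain. At the other end, 6 members were unique in every window, among them Hist1h1a, Hist1h1t, Hist2h2bb and Hist4h4, and Hist2h4 was unique in 93.9%.

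Promoters, taken from RefSeq on GRCm38.p6 as 250 bases before to 50 after the start, were found for 61 of the 68 members. Motifs were sought on both strands. The letters CCAAT stood in 52 of 61 members (85.2%) against 37.4% of all 32851 promoters: in 6 of 6 H1, 17 of 17 H2A, 16 of 16 H2B and 10 of 10 H3 genes, but in 3 of 12 H4 genes. The octamer ATTTGCAT stood in 14 of 61 (23.0%) against 1.74% of all promoters, in 7 H2A and 7 H2B genes. The letters TATAAA stood in 35 of 61 (57.4%) against 13.6%, and AAACACA in 5 of 6 H1 genes (83.3%) against 7.18%. No motif contains another, though matches can share letters at their ends. Neighbouring H2A and H2B genes that start close together on opposite strands share most of their promoter window. The same match can then count for both genes, as the octamer of Hist1h2ah and Hist1h2bk does, so the counts are not of independent promoters. Promoters of 3 members outside Hist1 in which 3D was the highest of the clones are shown, with motif matches in capitals. Hist2h2bb lies at chr3:96269450-96269749 on the plus strand, Hist3h2a at chr11:58954435-58954734 on the plus strand and Hist4h4 at chr6:136804382-136804681 on the minus strand.
Hist2h2bb: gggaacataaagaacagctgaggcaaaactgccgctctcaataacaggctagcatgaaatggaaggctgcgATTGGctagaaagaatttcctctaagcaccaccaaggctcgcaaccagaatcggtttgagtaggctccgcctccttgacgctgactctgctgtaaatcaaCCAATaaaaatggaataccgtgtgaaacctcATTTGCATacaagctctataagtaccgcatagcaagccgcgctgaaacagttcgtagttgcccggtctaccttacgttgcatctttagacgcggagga
Hist3h2a: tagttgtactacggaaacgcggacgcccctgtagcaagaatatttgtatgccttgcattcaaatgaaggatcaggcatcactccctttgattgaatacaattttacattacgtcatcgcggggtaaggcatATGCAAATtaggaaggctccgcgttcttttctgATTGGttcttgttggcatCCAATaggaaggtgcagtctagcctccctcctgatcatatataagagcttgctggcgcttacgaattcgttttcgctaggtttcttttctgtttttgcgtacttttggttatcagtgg
Hist4h4: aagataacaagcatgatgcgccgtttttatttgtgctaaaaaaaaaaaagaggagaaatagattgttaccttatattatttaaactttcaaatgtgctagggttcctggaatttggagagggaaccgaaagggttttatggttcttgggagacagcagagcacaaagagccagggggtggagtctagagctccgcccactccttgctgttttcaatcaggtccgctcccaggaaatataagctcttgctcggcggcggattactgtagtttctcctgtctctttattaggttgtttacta
The H2B and H2A promoters both held CCAAT and the octamer, while the H4 promoter held none of the 4 motifs. A match describes letters in a window, not a bound site.

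The histone genes together took 0.944% of gene counts in wild type against 0.899%, 0.964% and 0.941% in clones 3C, 3D and 3M. Their summed level was 9303 CPM in wild type against 9084, 9719 and 9402 CPM in the clones, a mean of 9402 ± 317 (SD, n = 3). Wild type lay within the range of the clones, and the clones' mean was 1.01 times wild type. In RNA from a whole culture, fewer cells in S phase and less RNA per cell cannot be told apart. Per length of coding sequence, the highest mean level over the 4 libraries was that of the H4 gene Hist1h4d with 1609.9 CPM per kilobase. It was followed by Hist2h2bb (H2B) with 1263, Hist1h1a (H1) with 1257, Hist1h4a (H4) with 974 and Hist1h1d (H1) with 949. These values divide uniquely mapped counts by the full coding length. Unique windows made up 57.8% for Hist1h4d, 24.7% for Hist1h4a and 73.6% for Hist1h1d, against 100% for Hist2h2bb and Hist1h1a. The order between these genes is therefore uncertain. The lowest mean among members with counts was 3.08 CPM per kilobase for Hist1h2ba, the testis-type H2B gene.

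Across all genes, 59 members and 13267 genes in all had enough counts to be tested, with wild type assumed to vary as the 3 clones do. The p-values therefore measure only the spread between these clones. At an adjusted p of 0.01, edgeR called 1 gene between rescue and wild type (0.00754% of genes tested), which was not a histone gene, and none of the 59 members. DESeq2 called 65 genes and again 0 members. At an unadjusted p under 0.05, 10 of 59 members passed, against 10.3% of genes tested. Of the 10, 8 were higher (5.92% of genes tested were higher at that p) and 2 lower (4.42%). All 10 lie in Hist1 on chromosome 13. Of the 463 other tested genes of that chromosome, 14.3% were higher and 0.432% lower at that p. In 21 of 59 members all 3 clones were above wild type, against 28.7% of genes tested, and in 14 all 3 were below, against 28.4%. The other 24 were mixed.

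**Figure D1:**
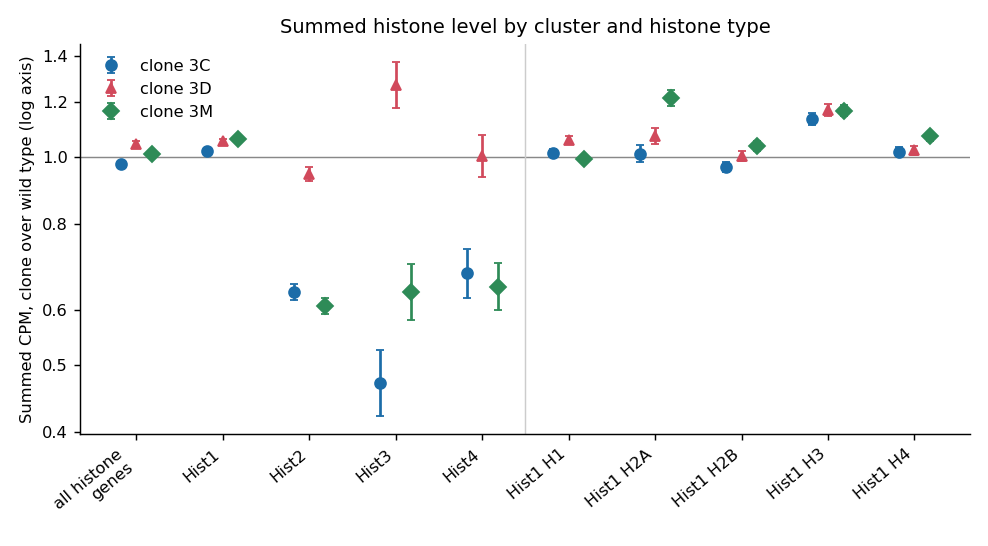
Summed CPM of each rescue clone divided by that of wild type, for the clusters and for the histone types of Hist1, with 95% exact intervals that cover counting error only. Hist1 sits at 1.02 to 1.06 in the 3 clones, whereas Hist2 sits at 0.637 and 0.608 in 3C and 3M and at 0.945 in 3D.

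The clusters differed in how the clones compared with wild type. Hist1, which held most of the histone RNA, summed to 8247 CPM in wild type against to 8418, 8692 and 8753 CPM in 3C, 3D and 3M. Its clones were 1.02, 1.05 and 1.06 times wild type. Hist2 summed to 889 CPM in wild type against to 567, 840.1 and 541 CPM in the clones. Clones 3C and 3M thus stood at 0.637 (95% counting interval 0.620 to 0.655) and 0.608 (0.593 to 0.624) of wild type, and clone 3D at 0.945 (0.923 to 0.967). Hist3 summed to 69.3 CPM in wild type against to 32.6, 87.9 and 44.2 CPM in the clones. For Hist3, the same 2 clones were below wild type, at 0.471 (0.422 to 0.525) and 0.638 (0.581 to 0.701), and 3D above it, at 1.27 (1.17 to 1.37). The genes outside Hist1 made up 11.4% of the histone CPM in wild type, 10.6% in 3D, 7.33% in 3C and 6.90% in 3M. Intervals here cover counting error only and say nothing of the spread between cultures.

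The linker histone H1 genes, which encode the proteins that bind DNA between nucleosomes, all lie in Hist1. They summed to 2775 CPM in wild type against to 2813, 2936 and 2752 CPM in the clones, and wild type lay within that range. Hist1h1a, the H1 gene with the highest level, had 792 CPM in wild type against 818, 845 and 774 CPM in 3C, 3D and 3M. Its log2 fold change was 0.04 (SE 0.07, adjusted p = 0.89 by edgeR). Hist1h1b had 516 CPM in wild type against 498, 545 and 511 in the clones, and Hist1h1d 612 against 657, 623 and 635. Hist1h1c had 466 CPM against 464, 466 and 445, and Hist1h1e 367 against 364, 439 and 378. In Hist1h1a, Hist1h1b and Hist1h1e, wild type lay between clones, in Hist1h1d it lay below all 3 clones, and in Hist1h1c it lay just above all 3.

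Hist1h1t, the testis-type linker histone, differed from the other H1 genes. It had 22.6 CPM in wild type against 10.7, 18.1 and 8.71 CPM in 3C, 3D and 3M. All 3 clones were below wild type and 3D was nearest to it, with a log2 fold change of -0.85 (SE 0.36) that did not pass the test (adjusted p = 0.50 by edgeR). The testis-type core histones were near the limit of counting. Hist1h2aa, an H2A gene, had 2.31 CPM in wild type against 0.223, 1.51 and 1.10 CPM in the clones (log2 fold change -1.25, SE 0.62, adjusted p = 0.55). Hist1h2ba, an H2B gene that lies head to head with it, had 2.10 CPM and 0.297, 1.24 and 1.10 CPM (log2 fold change -1.22, SE 0.55, adjusted p = 0.52). In both, all 3 clones were below wild type and 3C was lowest. The testis markers Prm1, Prm2 and Tnp1 were at 0 in all 4 libraries.

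Among the core histones of Hist1, the summed H3 genes were above wild type by a similar ratio in all 3 clones. The sums of H2A and H4 were also above wild type in all 3. H3 carries the tail lysines that many chromatin marks sit on. The 9 Hist1 H3 genes summed to 1137 CPM in wild type against to 1287, 1328 and 1325 CPM in the clones, a mean of 1313 ± 22.8 (SD, n = 3). Those are ratios of 1.13, 1.17 and 1.17. In 6 of the 9 all 3 clones were above wild type (28.7% of all genes tested), in 0 all were below (28.4%), and in 3 they were mixed. Among the 463 other tested genes of chromosome 13, which carries Hist1, 52.5% had all clones above and 3.46% all below. Hist1h3b had 116 CPM in wild type against 157, 147 and 147 CPM in 3C, 3D and 3M, which is 0.37 on the log2 scale (SE 0.08, adjusted p = 0.23). Hist1h3g had 97.4 CPM against 125, 124 and 124, a log2 fold change of 0.35 (SE 0.07, adjusted p = 0.22). Hist1h3a had 110 CPM against 132, 142 and 135, a log2 fold change of 0.31 (SE 0.08, adjusted p = 0.30). The groups did not overlap in these genes, but no H3 gene passed the adjusted test. At an unadjusted p under 0.05, 5 of the 9 passed, all higher. At that p, 5.92% of all genes tested and 14.3% of the other chromosome 13 genes were higher. Hist1h3e, the H3 gene with the highest level, had 256 CPM against 272, 271 and 279 (log2 fold change 0.10, SE 0.06, adjusted p = 0.62). Few of the H3 windows are unique (5.25% for Hist1h3b), so the split of counts between these genes is uncertain.

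The H4 genes of Hist1, which encode the partner of H3 in the nucleosome core, summed to 2046 CPM in wild type against to 2078, 2091 and 2188 CPM in the clones. Hist1h4d had 468 CPM in wild type against 514, 522 and 505 CPM in 3C, 3D and 3M (log2 fold change 0.13, SE 0.06, adjusted p = 0.51). Hist1h4n, which shares its coding sequence with Hist1h4m, had 106 CPM against 121, 141 and 139 (log2 fold change 0.34, SE 0.11, adjusted p = 0.40). Hist1h4i went the other way, with 99.0 CPM in wild type against 62.2, 36.6 and 71.5 CPM in the clones. All 3 clones were below wild type in Hist1h4i, 3D lowest, with a log2 fold change of -0.80 (SE 0.32, adjusted p = 0.48). Over the Hist1 H4 genes, 4 had all clones above, 3 all below and 3 were mixed.

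The H2A and H2B genes encode the partners of the dimers that flank the H3 and H4 core. The Hist1 H2A genes summed to 652 CPM in wild type against to 659, 699 and 793 CPM in the clones, and the Hist1 H2B genes to 1637 CPM and to 1581, 1639 and 1695 CPM. Wild type lay within the clones' range for H2B and below it for H2A. Hist1h2ak, the H2A gene with the highest level, had 164 CPM against 165, 173 and 196 (log2 fold change 0.12, SE 0.11, adjusted p = 0.73). Hist1h2bg, the H2B gene with the highest level in Hist1, had 248 CPM against 248, 246 and 260.2 (log2 fold change 0.02, SE 0.07, adjusted p = 0.94). The highest positive log2 fold change of any member was that of Hist1h2an, an H2A gene, at 0.64 (SE 0.26, adjusted p = 0.49), from 28.6 CPM in wild type against 33.8, 54.7 and 44.9 CPM in the clones. Its clones were all above wild type but differed among themselves by more than 3C differed from wild type. H2A and H2B genes often lie head to head: 14 pairs of members start within 1000 bases of each other, 173 to 660 bases apart, and 13 of these join an H2A and an H2B gene. In the 12 pairs with both members tested, the log2 fold changes had the same sign in 6, with a median gap of 0.22 between partners. The widest gap, 1.06, was that between Hist1h2an and its partner Hist1h2bp, an H2B gene with a log2 fold change of -0.42.

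**Figure D2:**
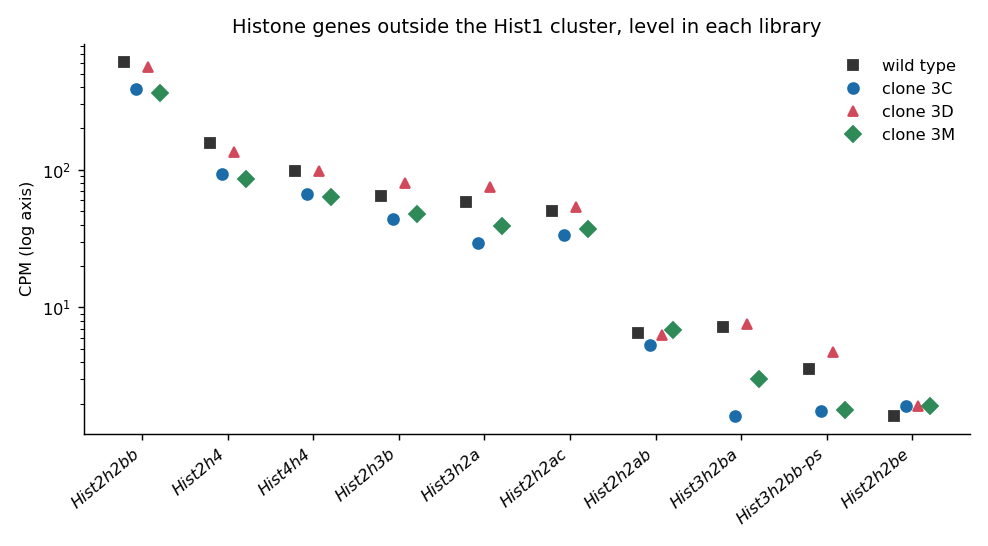
Level of the 10 tested histone genes outside Hist1 in each library, in CPM on a log axis, with 1 point per library. For Hist2h2bb the wild-type culture and clone 3D sit at 611 and 564 CPM, and 3C and 3M at 389 and 361 CPM.

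Outside Hist1, the 3 rescue clones did not move together. Hist2h2bb, the H2B gene with the highest level of all H2B members, had 611 CPM in wild type against 389, 564 and 361 CPM in 3C, 3D and 3M, from 11652, 5239, 8200 and 5598 read pairs. Hist2h4, an H4 gene, had 155 CPM in wild type against 93.1, 135 and 85.3 CPM in the clones. Hist4h4, an H4 gene on another chromosome, had 98.3 CPM in wild type against 66.7, 98.4 and 63.8 CPM. In each of these, 3C and 3M were close to each other and below both wild type and 3D. Hist2h3b, an H3 gene, had 64.2 CPM in wild type against 44.1, 79.7 and 48.2 CPM in 3C, 3D and 3M. Hist3h2a, an H2A gene, had 58.5 CPM and 29.2, 75.6 and 39.4 CPM. Hist2h2ac, another H2A gene, had 50.3 CPM and 33.5, 54.0 and 37.2 CPM. Here too 3C and 3M were below wild type, and 3D was above it. Hist3h2ba, an H2B gene with few counts, had 7.18 CPM in wild type against 1.63, 7.56 and 3.03 CPM, and the pseudogene Hist3h2bb-ps had 3.57 CPM and 1.78, 4.74 and 1.81. Hist2h2ab (H2A) with 5.34 to 6.84 CPM and Hist2h2be (H2B) with 1.63 to 1.94 CPM did not show 3C and 3M both below wild type.

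With the 3 clones pooled, no member outside Hist1 passed the test against wild type. The log2 fold changes were -0.48 (SE 0.24) for Hist2h2bb, -0.58 (SE 0.24) for Hist2h4, -0.37 (SE 0.24) for Hist4h4, -0.28 (SE 0.48) for Hist3h2a and -0.81 (SE 0.63) for Hist3h2ba. For Hist2h2ac it was -0.28 (SE 0.26) and for Hist2h3b -0.16 (SE 0.33). Among these 7 genes, adjusted p ranged from 0.50 for Hist2h4 to 0.89 for Hist2h3b by edgeR. The outcome differed without clone 3D, when, 420 of 13243 genes (3.17%) passed at an adjusted p of 0.01, and 7 of these were histone genes, all lower. They were Hist2h2bb at a log2 fold change of -0.70 (adjusted p = 9.7e-05), Hist2h4 at -0.80 (adjusted p = 0.000172), Hist4h4 at -0.59 (adjusted p = 0.002), Hist3h2a at -0.77, Hist3h2ba at -1.59, Hist1h1t at -1.23 and Hist1h4i at -0.57. In that comparison the spread comes from 2 clones alone.

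**Figure D3:**
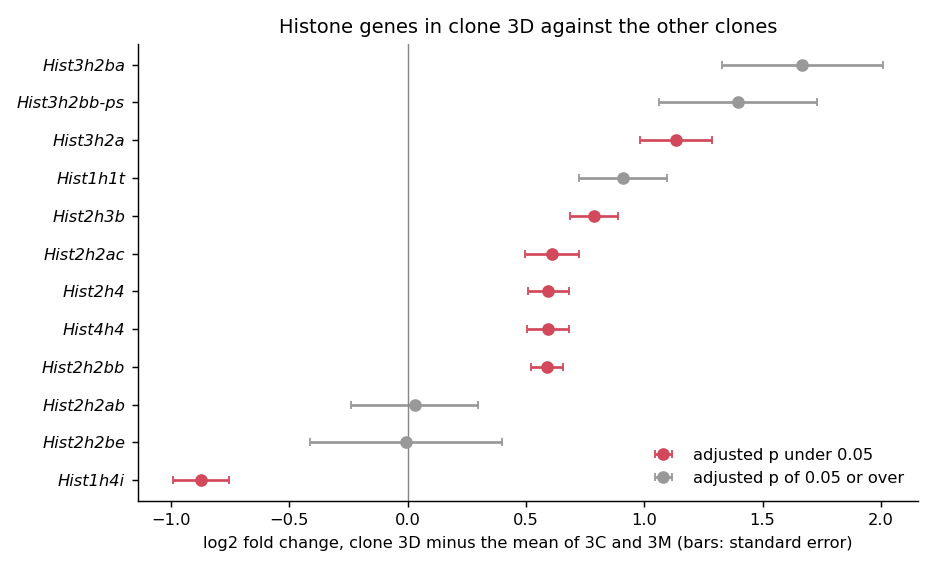
Log2 fold change of clone 3D against the mean of clones 3C and 3M, with SE bars, for the 10 tested members outside Hist1 and for Hist1h4i and Hist1h1t. Members outside Hist1 sit at 0.59 to 1.67 except Hist2h2ab at 0.03 and Hist2h2be at -0.01, and Hist1h4i sits at -0.87.

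Each clone was also set against the other 2 in the same way, with 1 residual degree of freedom. The residual spread came only from the other 2 clones, and the clone set apart was 1 library. For 3D that spread is between 3C and 3M, whereas for 3C and for 3M it includes 3D. The counts of genes are therefore not like for like between the 3 comparisons. At an adjusted p of 0.01, edgeR called 0 genes (0% of genes tested) for 3C, 5 genes (0.0377%) for 3D and 0 genes (0%) for 3M, and no histone gene in any of the 3. At an unadjusted p under 0.05 these comparisons gave 770, 1538 and 176 genes, of which 6, 16 and 4 were histone genes. DESeq2 called 4, 39 and 3 genes, of which 3 histone genes, all for 3D: Hist3h2a, Hist2h2bb and Hist1h4i. With DESeq2's size factors in place of TMM, edgeR called 185 genes for 3D, of which 6 were histone genes, so the count of 0 depends on the scaling. At an adjusted p of 0.05, a threshold chosen after the values were seen, edgeR gave 235 genes for 3D (1.77%), with 46 higher (0.347%) and 189 lower (1.42%). Histone genes were 6 of the 46 higher and 1 of the 189 lower. No gene passed at 0.05 for 3C or 3M.

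The 6 histone genes higher in 3D at that threshold all lie outside Hist1, on 3 chromosomes. Hist3h2a was higher by 1.14 on the log2 scale (SE 0.15, adjusted p = 0.0150), Hist2h3b by 0.79 (SE 0.10, adjusted p = 0.0150) and Hist2h2ac by 0.61 (SE 0.12, adjusted p = 0.0362). Hist2h2bb was higher by 0.59 (SE 0.07, adjusted p = 0.0105), Hist2h4 by 0.59 (SE 0.09, adjusted p = 0.0184) and Hist4h4 by 0.59 (SE 0.09, adjusted p = 0.0198). Of these 6, Hist2h2ac did not pass without the low-count filter, and Hist2h2ac (adjusted p = 0.324) and Hist4h4 (adjusted p = 0.077) did not pass with DESeq2. The histone types are mixed, with 2 H2A, 1 H2B, 1 H3 and 2 H4 genes. Just outside the threshold were Hist3h2ba at 1.67 (SE 0.34, adjusted p = 0.0503) and Hist1h1t at 0.91 (SE 0.19, adjusted p = 0.0506). The 1 gene lower in 3D was Hist1h4i, at -0.87 (SE 0.12, adjusted p = 0.0150). The median difference of the 10 tested genes outside Hist1 was 0.60, that of the 49 tested Hist1 genes -0.00 and that of all genes -0.00. Neighbouring genes of the small clusters did not share the shift: within 2 megabases of Hist2 (76 genes), Hist3 (58) and Hist4 (21), the medians of 3D against the other clones were all 0.01 and no gene passed at 0.05.

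**Figure D4:**
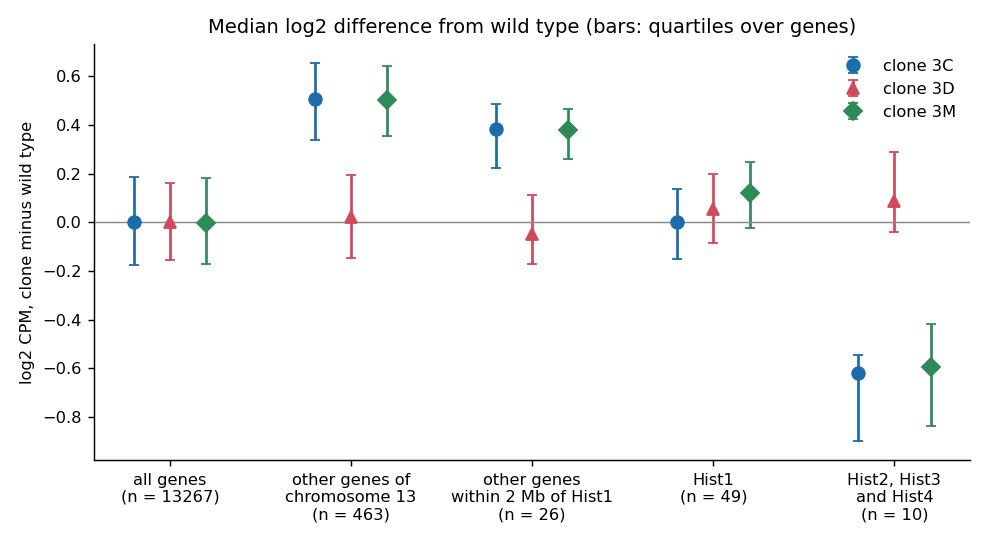
Median and quartiles of the log2 difference of each clone from wild type, for all tested genes, for other genes of chromosome 13, for genes within 2 megabases of Hist1, for Hist1 and for histone genes elsewhere. Other chromosome 13 genes sit at 0.51 and 0.50 in 3C and 3M and at 0.02 in 3D, whereas Hist1 sits at 0.00, 0.12 and 0.05 in 3C, 3M and 3D.

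Chromosome 13, which carries Hist1, had its own pattern among the clones. The 463 other tested genes of that chromosome had a median log2 difference from wild type of 0.51 in 3C, 0.02 in 3D and 0.50 in 3M, and 423 (91.4%), 255 (55.1%) and 419 (90.5%) of them were above wild type. The 49 Hist1 genes had medians of 0.00, 0.05 and 0.12, with 25 (51.0%), 29 (59.2%) and 34 (69.4%) above wild type. In 3C 0 of 49 Hist1 genes reached the median of their chromosome, in 3M 1 of 49, Hist1h2an, and in 3D 28 of 49. The 26 other genes within 2 megabases of Hist1 had medians of 0.38, -0.05 and 0.38, and the 8 that lie between the first and last Hist1 gene 0.25, -0.08 and 0.30. Taken relative to the rest of the chromosome, the Hist1 medians were -0.50 in 3C, 0.03 in 3D and -0.38 in 3M. Relative to the genes within 2 megabases they were -0.38 in 3C, 0.10 in 3D and -0.26 in 3M. The medians of the genes outside Hist1 were -0.62, 0.09 and -0.60 from wild type, and those of the other genes on chromosome 3 were -0.03, 0.01 and -0.02. When 3D was set against the other clones, 124 of the 463 other chromosome 13 genes (26.8%) were lower at an adjusted p of 0.05 and 0 higher, against 1 of 49 Hist1 genes (2.04%). The difference between Hist1 and the rest of chromosome 13 was not tested, and no copy number was measured here.

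**Figure D5:**
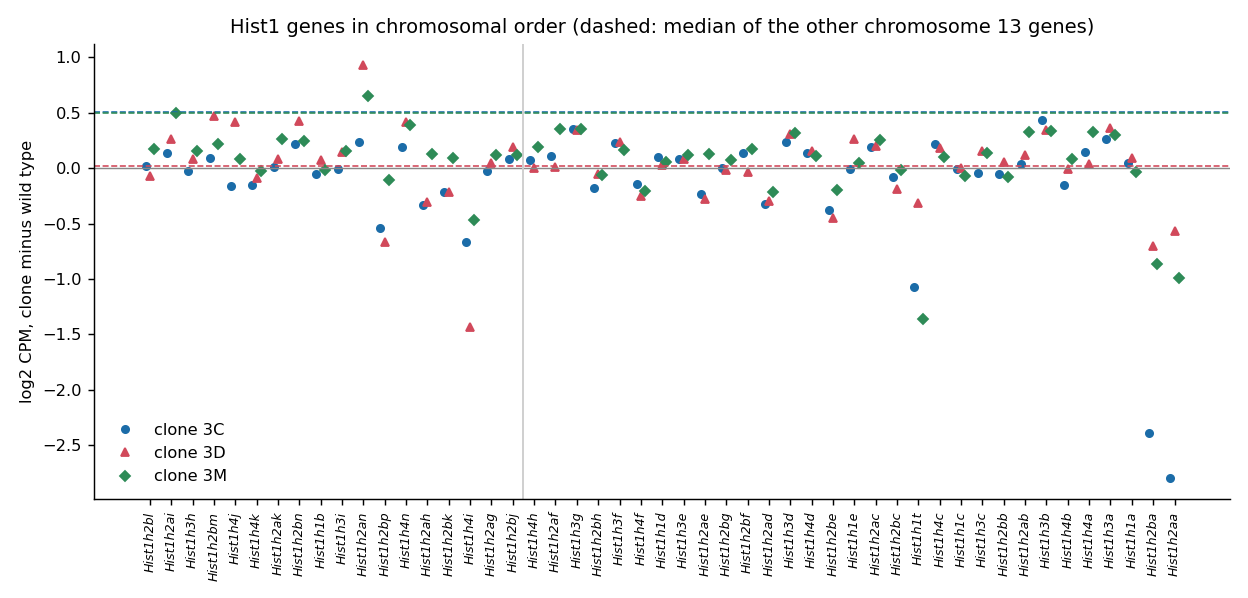
Log2 difference from wild type of the 49 tested Hist1 genes in their order along chromosome 13, with 1 point per clone, dashed lines at the medians of the other chromosome 13 genes and a vertical line between the blocks of the cluster. Hist1 genes of 3C sit below the dashed line of that clone throughout, while Hist1h4i in 3D sits lowest of its block at -1.43.

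Along chromosome 13, Hist1 falls into 2 blocks, of 23 and 31 genes. The first block summed to 2093 CPM in wild type against to 2033, 2231 and 2266 CPM in 3C, 3D and 3M, and the second to 6154 CPM and to 6385, 6461 and 6487 CPM. The medians of the log2 differences were -0.02, 0.08 and 0.14 in the first block and 0.04, 0.03 and 0.10 in the second. The medians of the blocks differed by less than the distance between the quartiles within each. Histone genes lay far from these medians at single sites in both blocks, such as Hist1h4i in the first and Hist1h1t in the second.

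None of the genes that make and process histone mRNA passed the test at an adjusted p of 0.01. Among all 13267 genes tested, edgeR called 1 (0.00754%), so the absence of a call does not show that these genes were unchanged. Slbp, which binds the stem-loop, had 91.9 CPM in wild type against 97.0, 88.9 and 95.7 CPM in 3C, 3D and 3M. Npat, the coactivator of histone genes, had 100.5 CPM and 102, 109 and 96.3 CPM, and Casp8ap2, its partner in the nuclear bodies, 141 CPM and 137, 134 and 137. In Slbp and Npat wild type lay within the range of the clones. Lsm10 had 9.75 CPM and 8.16, 10.7 and 8.39, and Lsm11 11.9 CPM and 12.98, 13.7 and 9.49. Clones 3C and 3M were below 3D in both, but in Lsm11 3C was above wild type. The log2 difference of 3D from the other clones was 0.36 (SE 0.21) for Lsm10 and 0.29 (SE 0.22) for Lsm11. Counts were low, at 110 to 186 read pairs per library for Lsm10 and 147 to 227 for Lsm11. Of the 21 tested genes for transcription and 3′ processing, 0 were called by edgeR, and the median log2 fold change was 0.05 beside 0.01 for all genes. At an unadjusted p under 0.05, 1 was higher (5.92% of all genes tested) and 1 lower (4.42%). Lowest in p were Ccne2, a cyclin of S phase entry, at 0.32, Nelfe, a subunit of a pausing factor, at -0.28 and Zfp473, a zinc finger protein of the U7 machinery, at 0.19. The 9 genes of histone mRNA decay had 0 called, 0 at that p and a median of 0.01. Lowest in p among them were Lsm1 at -0.24, the decapping enzyme Dcp2 at -0.13 and Zcchc6, a uridylyltransferase, at 0.49. Zcchc6 lies on chromosome 13 and had 53.6 CPM in wild type against 84.5, 56.0 and 85.3 CPM in the clones.

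The S phase and mitosis genes were examined as a sign of the share of cycling cells, since histone mRNA follows S phase. None of the 28 S phase genes was called by edgeR, against 0.00754% of all genes tested. Their median log2 differences were 0.11, 0.05 and 0.06 in 3C, 3D and 3M. At an unadjusted p under 0.05, 3 of the 28 were higher (5.92% of all genes tested) and 0 lower (4.42%). The 3 were the ribonucleotide reductase subunits Rrm1 at 0.21 and Rrm2 at 0.20 and the licensing factor Cdt1 at 0.22. The 18 mitosis genes had 0 called, 1 higher and 0 lower, and medians of -0.00, 0.03 and 0.00. Lowest in p were the kinesin Cenpe at 0.19, the proliferation marker Mki67 at 0.15 and the cyclin Ccnb1 at 0.35. Ccnb1, on chromosome 13, had 201 CPM in wild type against 287, 207 and 277 CPM in the clones. Neither list had a median as far from 0 as the -0.62 and -0.60 of the histone genes outside Hist1 in 3C and 3M, and the part of the cell cycle in those values was not tested.

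Chaperones and variants that handle histones by other routes were also listed. Among 14 chaperones of replication-coupled assembly, 0 were called, and the median was 0.01. At an unadjusted p under 0.05, 2 were higher (5.92% of all genes tested) and 1 lower (4.42%). These were Supt16, a subunit of the FACT complex, at 0.33 and the importin Ipo4 at 0.27, both on chromosome 14, and Rbbp4, a subunit of the CAF-1 complex, at -0.17. Among 11 variants whose mRNAs carry a poly(A) tail, 0 were called, 1 was higher and 1 lower, and the median was -0.06. The macroH2A genes lay on opposite sides of wild type, with H2afy on chromosome 13 at 0.40 and H2afy2 at -0.58, and the H3.3 gene H3f3b was at -0.07. H1f0, a variant H1 gene on chromosome 15 named after its values were seen, had 35.7 CPM in wild type against 27.9, 38.7 and 23.3 CPM in 3C, 3D and 3M, with 3D highest. Its difference between 3D and the other clones was 0.60 (SE 0.14, adjusted p = 0.083).

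Other RNAs without a poly(A) tail give a view of RNA that only rRNA depletion captures. Of 9 such RNAs tested, 0 were called by edgeR. At an unadjusted p under 0.05, 3 were higher (5.92% of all genes tested) and 1 lower (4.42%). The median log2 fold change, 0.58, is the value of Rprl1, which had 7, 10, 5 and 9 read pairs in wild type, 3C, 3D and 3M. Rnu11 and Rnu12, also with few counts, were at 0.66 and 0.63. With more counts, Rpph1 was at 0.20, Rn45s at 0.04 and Terc at -0.11. Rmrp, the RNA of RNase MRP, had 4032 CPM in wild type against 1959, 2476 and 2498 CPM in 3C, 3D and 3M (log2 fold change -0.80). Rprl3, an RNase P RNA-like gene, had 98.8 CPM against 393, 414 and 306 (log2 fold change 1.91), and Rprl2 was at 1.46. Rmrp, Rprl3 and Rprl2 had the lowest p of the list. In all 3 the clones stood together on one side of wild type and did not overlap it. Among all genes tested, 28.7% had all clones above wild type and 28.4% all below.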

How the data were processed

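RNA was sequenced from 1 wild-type ES cell culture and 3 Morc3 rescue clones as 50-base read pairs of rRNA-depleted total RNA with a directional kit. The authors aligned the pairs and deposited raw counts per gene, 1 for each uniquely mapped pair; the submitters' processing notes name STAR and mm10. Which annotation served for counting was not given in the sources used. Column 4, the reverse-strand count, was used. Pairs outside genes (23.6% to 24.7%), multimapping and unmapped pairs stayed out of the counts on genes, which ranged from 13620914 to 18789457. Library sizes were the counts on tested genes, from 13613803 to 18778742, or from 13481002 to 19071857 after TMM scaling.

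Tests used edgeR 4.0.16 under R 4.3.3 (quasi-likelihood test, TMM, filterByExpr, Benjamini-Hochberg adjustment over all genes, adjusted p of 0.01). CPM values are TMM-scaled, and log2 differences of single clones use a prior count of 2. Intervals are exact at 95% and cover counting error only. DESeq2 1.42.0, other scalings, filters and the unstranded column were alternatives. Positions and promoters came from RefSeq GRCm38.p6 (22542 symbols matched directly, 1352 by 1 synonym, 160 not matched), and coding sequences and stem-loops from GENCODE transcripts, found for 68 of 68 members. Simulated counts served to check the code. Of 200 genes given a 4-fold change there, a median of 98% was recovered over 13182 genes for rescue against wild type. For clone 3D against the others it was 96.5% over 13188. These shares hold for simulated 4-fold changes only. They do not show what share of real or smaller changes would be found in these libraries. In the data, Morc3 had a log2 fold change of 1.87 and was not called (adjusted p = 0.108 by edgeR).

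The members and lists were chosen with earlier results of these data known. Members given in full were those with the highest level in each cluster and type, the 5 largest and 5 smallest log2 fold changes, called members and the testis-type genes. From each of the 7 gene lists, the 3 genes with the lowest p were named, and Slbp, Npat, Casp8ap2, Lsm10 and Lsm11 always. Other genes named were chosen after their values were seen.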

Additional observations from a re-analysis of the deposited data

How the results depend on the processing

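Between rescue and wild type, the 1 gene called became 0 with at least 10 counts in every library and 65 with DESeq2, and 4 histone genes passed at an unadjusted p of 0.01 in place of 10 at 0.05. Leaving out each clone in turn gave 0 to 420 genes called, 0 to 7 histone genes called and 7 to 25 histone genes at an unadjusted p under 0.05. It gave a Hist1 median of 0.05 to 0.10, a Hist2 median of -0.49 to -0.08, a summed histone ratio of 0.993 to 1.03 and 0.622 to 0.801 outside Hist1. The highest counts, -0.49 and 0.622 are the values without 3D. The share of all genes at an unadjusted p of 0.01, or at 0.05 without a clone, was not computed. Those histone counts thus have no background to be read against. Hist1h2bg ranged from -0.0058 without 3M to 0.036 without 3D. For 3D against the other clones, the genes called were 5, but 155 with at least 10 counts in every library, 3 without a filter, 185 with DESeq2 size factors, 15 with TMM factors without genes over 1% of the counts, 65 with TMM factors without chromosome 13 and 39 with DESeq2. Histone genes called were 6, 0, 6, 1, 5 and 3 in that order, against 0. At an adjusted p of 0.05 they were 7, and 11 with at least 10 counts or with DESeq2 size factors, 9 with either other TMM setting, 6 without a filter and 5 with DESeq2. The other scalings and the fit without a filter were added after seeing the data. For the alternative settings, the share of all genes at an adjusted p of 0.05 was not computed. DESeq2 called 4 genes for 3C and 3 for 3M. The Hist1 medians were -0.50 and -0.38 relative to other chromosome 13 genes in 3C and 3M, and -0.38 and -0.26 relative to neighbouring genes. No paired analysis was possible because wild type is 1 library. Leaving out a clone from 3D against the others was not run, since no residual degree of freedom would remain. The causes of these changes were not tested.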
